A study of Mus musculus with 8 samples.

Results

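The 51 genes described here encode proteins of the presynaptic terminal that store, dock, fuse or retrieve synaptic vesicles, together with the neuronal coiled-coil protein *Jakmip3*. They were taken by gene symbol from a table of 33971 genes, and all 51 passed the filter on low counts that left 19367 genes for testing. The table compares whole brains of wild-type mouse embryos at E14.5. Their wild-type dams had been time-mated with wild-type males and fed either a choline-deficient diet (CDD, 4 brains) or a normal chow diet (ND, 4 brains) from the day of mating. The RNA of each whole brain was enriched for polyadenylated transcripts before bulk sequencing. The comparison asks what a maternal shortage of choline changes in the embryonic brain, and each value below is the RNA of all brain cells together. The labels give neither the sex of the embryos nor the number of dams, so p-values measure the spread between these brains, which may include littermates. Fewer cells of a type and less RNA per cell cannot be told apart in such samples.

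A presynaptic terminal releases transmitter when a vesicle filled by transporters fuses with the membrane of the active zone. Fusion is driven by SNARE proteins that zip the vesicle to the membrane, is prepared by scaffolds and priming factors that hold the vesicle at the release site, and is triggered by calcium sensors of the synaptotagmin and Doc2 families with the help of complexins. Synapsins and synucleins organize the vesicle pool, Rab3 GTPases mark the vesicles, and dynamin and amphiphysin retrieve the membrane. At this stage of gestation most neurons of the mouse brain are newly born, and many of these genes are already transcribed before synapses are plentiful. Choline is a precursor of membrane phospholipids and of acetylcholine.

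Library totals ranged from 31770217 to 43121170 counted reads. Levels are given as CPM, the count of a gene relative to the scaled total of its library, and the lowest count of any of the 51 genes in any brain was 113. CDD replicate 2 stood apart: markers of the caudal hindbrain and spinal cord summed to 143 CPM there and to 3.79 to 8.12 CPM in the other 7 brains. Markers of neuron structure, such as tubulins and neurofilaments, summed to 14952 to 16592 CPM in the CDD brains and 15786 to 16537 CPM in the ND brains, and the diets overlapped. Markers of neural progenitors summed to 3113 to 3521 CPM in the CDD brains and 2690 to 2917 CPM in the ND brains, with no overlap. The part of either marker difference in the results below was not tested.

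Of the 51 genes, 22 were lower in the CDD brains at an adjusted p under 0.05 (43.1%), 1 was higher and 28 did not pass the test. Over all genes tested, 4.59% were called lower, 4.24% higher and 8.83% in either direction. The 51 genes and the other lists below were chosen with earlier results of these data known. The shares therefore describe the lists and are no test of enrichment. Among the genes called, *Dnm1* fell by 10.97%, the least, and *Jakmip3* fell by 43.5%, the most, and the median gene fell by 17.1%. For 20 of the 22 genes every CDD brain lay below every ND brain, and *Stx1a* and *Sv2a*, which did not pass, showed the same separation. Such a separation was found downwards in 7.39% of all genes tested and upwards in 7.65%. The median log2 fold change of the 51 genes was -0.13, with 40 values below 0 and 11 above, against -0.0038 over all genes. The summed level of the 51 genes was 4758 to 5202 CPM in the CDD brains and 5167 to 5468 CPM in the ND brains, so the sums overlapped. Only CDD replicate 2, at 5202 CPM, reached the ND range, and the other CDD brains lay at 4758 to 5126 CPM. Leaving out ND replicate 1, 3 or 4 left 13, 12 and 13 genes called lower, and 11 of the 22 were called in each of the 8 fits that left out 1 brain: *Rab3a*, *Rims1*, *Rims3*, *Vamp2*, *Jakmip3*, *Baiap3*, *Syn2*, *Sncb*, *Syt5*, *Syngr1* and *Syngr3*. The number of all genes called also varied with the brain left out, and its range is given in the last section. Without CDD replicate 2, 22 were called lower and 1 higher, against 3.99% and 3.15% of all genes. When libraries were scaled to the neuron structure markers instead, 17 of the 51 were called lower and 1 higher, and *Snap25*, *Syn1*, *Syt6*, *Syp* and *Dnm1* were no longer called. That scaling also moved the split over all genes, from 888 lower and 822 higher to 435 lower (2.25%) and 999 higher (5.16%).

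**Figure D1:**
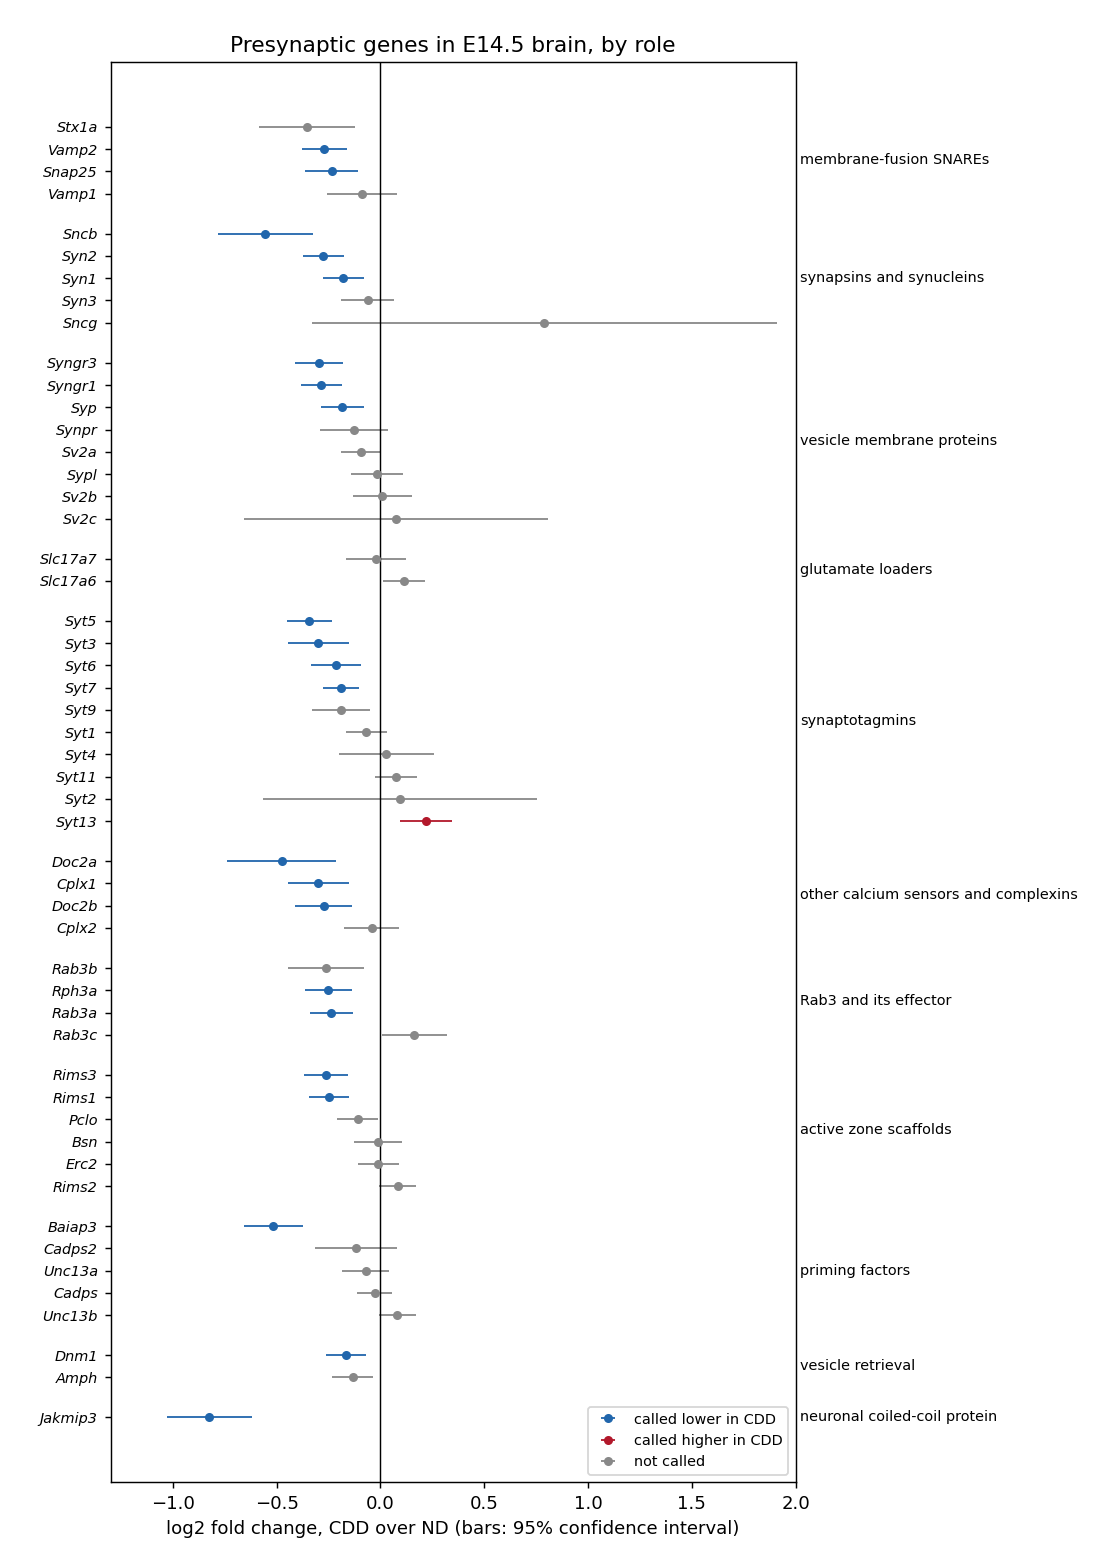
Log2 fold change (CDD over ND) of each of the 51 presynaptic genes, grouped by role. Points are estimates from the 8 brains, bars are 95% confidence intervals, blue and red mark genes called lower and higher, and grey marks genes not called. 22 genes are blue and *Syt13* is the 1 red gene, while *Sncg*, *Sv2c* and *Syt2* have the widest bars.

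**Figure D2:**
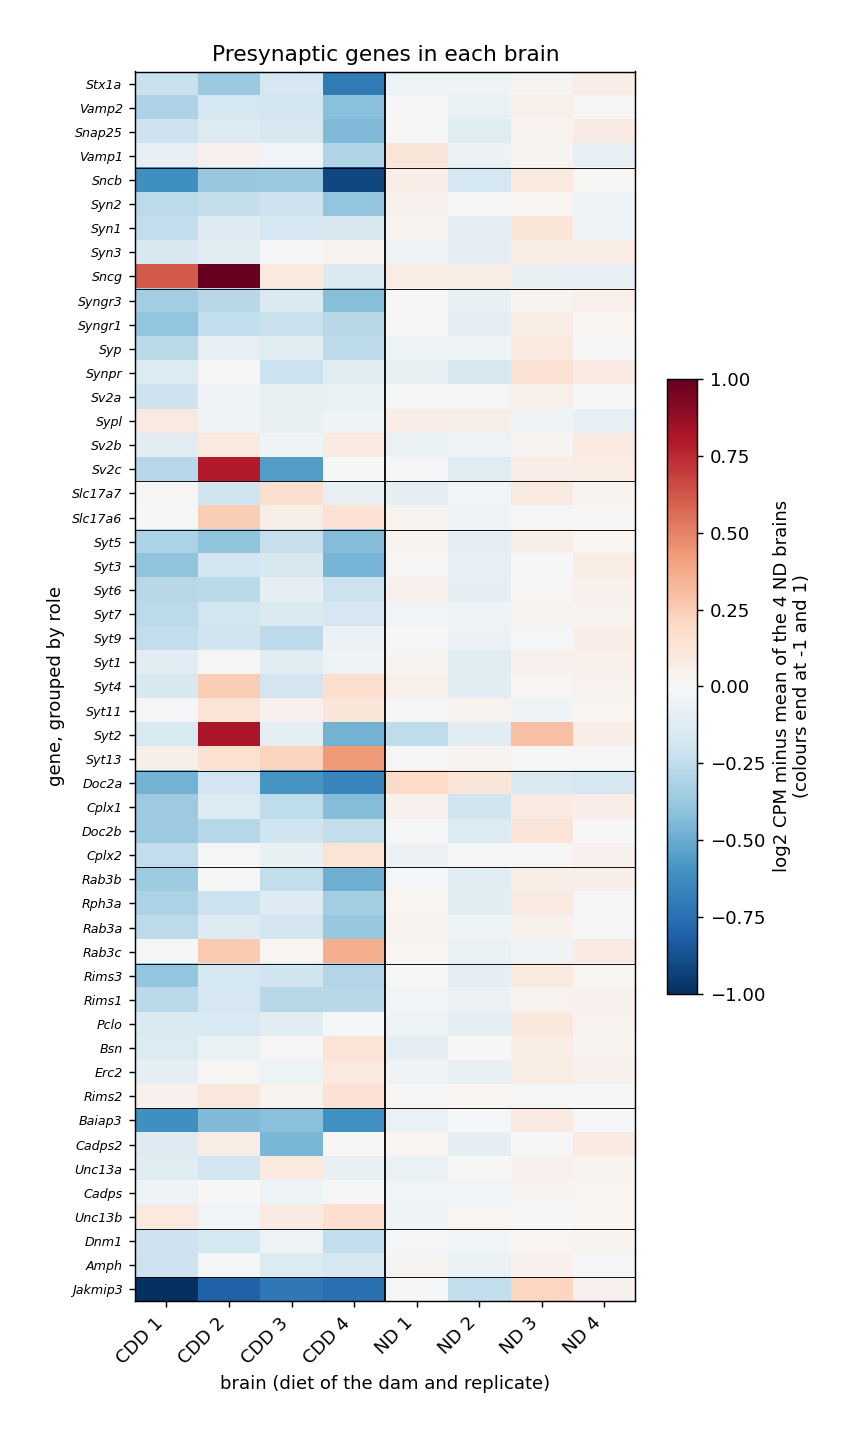
Log2 CPM of the 51 genes in each of the 8 brains, minus the mean of the 4 ND brains, with colours ending at -1 and 1. Rows are genes grouped by role and columns are brains. *Jakmip3*, *Baiap3* and *Sncb* are blue in every CDD brain, and the reddest cells of *Sncg*, *Sv2c* and *Syt2* lie in CDD replicate 2.

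The 4 upstream windows below, each of 250 bases, are shown because these genes mark the range of the response: *Jakmip3* had the largest fall, *Syn1* is the classical promoter used to target neurons, and the complexins *Cplx1* and *Cplx2* are paralogs of which 1 was called lower and the other was not. They were taken from RefSeq, build GRCm38.p6, and end at the base before the annotated start. The authors list gene positions on a build that the sources used here do not name, and the 2 sets of coordinates are not joined. Capitals mark matches to 4 letter strings searched on both strands: CCGCCC (a GC box, the core of an Sp1 site), TGACGTCA (a cAMP response element, CRE), and TTCAGCACC and GGACAGCG (the left and right parts of RE1, the element bound by the neuronal repressor REST). The *Syn1* window (minus strand of chrX:20920919-20921168) holds the left RE1 part from position -232 and a CRE from -159, the *Jakmip3* window (plus strand of chr7:138940480-138940729) holds GC boxes from -96, -54 and -9, the *Cplx1* window (minus strand of chr5:108550028-108550277) holds a GC box from -11, and the *Cplx2* window (plus strand of chr13:54302306-54302555) holds none of the 4.
*Syn1*: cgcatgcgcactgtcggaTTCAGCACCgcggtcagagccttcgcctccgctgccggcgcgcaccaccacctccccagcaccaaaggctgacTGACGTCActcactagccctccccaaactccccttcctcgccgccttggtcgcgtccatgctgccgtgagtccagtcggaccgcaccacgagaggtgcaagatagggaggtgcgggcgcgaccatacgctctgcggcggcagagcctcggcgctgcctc
*Jakmip3*: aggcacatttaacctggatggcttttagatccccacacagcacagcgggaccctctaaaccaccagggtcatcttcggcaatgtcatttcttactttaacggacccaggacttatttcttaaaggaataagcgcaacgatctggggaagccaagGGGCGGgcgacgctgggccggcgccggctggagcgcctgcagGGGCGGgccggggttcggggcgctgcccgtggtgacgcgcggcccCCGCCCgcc
*Cplx1*: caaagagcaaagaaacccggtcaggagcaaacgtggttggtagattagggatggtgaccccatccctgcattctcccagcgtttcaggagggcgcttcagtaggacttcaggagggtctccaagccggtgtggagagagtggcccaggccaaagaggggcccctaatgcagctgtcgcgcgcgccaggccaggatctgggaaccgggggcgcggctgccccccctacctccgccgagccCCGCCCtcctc
*Cplx2*: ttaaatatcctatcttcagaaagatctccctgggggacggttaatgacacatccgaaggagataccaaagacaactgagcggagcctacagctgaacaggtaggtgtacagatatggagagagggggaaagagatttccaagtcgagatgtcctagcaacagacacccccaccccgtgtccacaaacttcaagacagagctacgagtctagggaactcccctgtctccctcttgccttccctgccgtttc

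A window was found for 40 of the 51 genes. A GC box lay in 30 of them (75%), against 32.7% of all 32851 windows. It was in 11 of the 15 windows of genes called lower and in 19 of the 25 other windows. The CRE and the left RE1 part were found in *Syn1* alone among these genes, and in 1.55% and 0.301% of all windows. The right RE1 part was found in *Syt6* and in 0.992% of all windows. A match here is a description of the letters.

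*Jakmip3* (ENSMUSG00000056856, chr7:138542459-138663892 on the authors' build) belongs to a family of coiled-coil proteins that bind Janus kinases and microtubules and is found mainly in neurons. It measured 6.76, 7.77, 8.29 and 8.11 CPM in the CDD brains and 13.5, 11.5, 15.8 and 14.1 CPM in the ND brains, in the order of replicates 1 to 4. The highest CDD brain lay well below the lowest ND brain. Its level fell by 43.5% (log2 fold change -0.82 ± 0.099 (SE), adjusted p = 0.000531), and it was the only one of the 51 genes past the test to change by more than 1.5-fold. Its relative *Jakmip1*, from a list of other presynaptic genes, measured 10.3 ± 1.77 CPM in CDD and 13.2 ± 1.002 CPM in ND (mean ± SD, n = 4), a log2 fold change of -0.35 (adjusted p = 0.0431), with overlap between the diets. The *Jakmip1* call held in 3 of the 8 fits with 1 brain left out, and was lost with the neuron scaling (adjusted p = 0.0847) and with an offset for the GC content of transcripts (adjusted p = 0.107).

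Among the 4 membrane-fusion SNAREs, 2 were called lower and all 4 estimates were below 0. *Vamp2* (chr11:68979316-68983210) encodes synaptobrevin 2, the vesicle SNARE of fast release. It measured 197, 216, 215 and 183 CPM in the CDD brains and 245, 234, 253 and 246 CPM in the ND brains, with no overlap. It fell by 17.03% (log2 fold change -0.27 ± 0.052 (SE), adjusted p = 0.00437). *Snap25*, a target-membrane SNARE, was at 89.9 ± 8.16 CPM in CDD and 106 ± 6.38 CPM in ND (mean ± SD, n = 4) and fell by 14.99% (adjusted p = 0.0246). The *Snap25* call was lost without ND replicate 1, 3 or 4 and with the neuron scaling (adjusted p = 0.066).

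*Stx1a* encodes syntaxin 1A, the partner of *Snap25* in the target membrane. It read 70.1, 62.97, 72.5 and 50.2 CPM in the CDD brains, where replicate 4 was lowest, and 78.9, 78.97, 83.4 and 85.5 CPM in the ND brains. Although the diets did not overlap, it missed the threshold (log2 fold change -0.35 ± 0.102 (SE), adjusted p = 0.067), whereas DESeq2 gave an adjusted p of 0.00185. *Stx1a* was named after its values were seen. *Vamp1*, the second synaptobrevin, was at 15.2 ± 1.52 CPM in CDD and 16.1 ± 1.04 CPM in ND (log2 fold change -0.089, 95% interval -0.26 to 0.079, adjusted p = 0.549), and *Tapbpl* overlaps it on the other strand with 22.2% of its counts. Summed over the 4 genes, SNARE transcripts were 324 to 397 CPM in CDD and 425 to 461 CPM in ND, with no overlap. *Vamp2* supplied 244 of the mean 448 CPM in ND. Sums were also lower without overlap for synapsins and synucleins, vesicle membrane proteins and vesicle retrieval. They overlapped in the other roles with several genes.

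Of the 5 synapsins and synucleins, 3 were called lower. *Sncb* (chr13:54906673-54914408) encodes beta-synuclein, a vesicle-associated relative of alpha-synuclein. It measured 20.7, 24.5, 24.6 and 16.9 CPM in the CDD brains and 33.2, 28.2, 33.9 and 32.1 CPM in the ND brains, with CDD replicate 4 lowest. It fell by 31.9% (log2 fold change -0.55 ± 0.105 (SE), adjusted p = 0.00798), the second largest fall among the genes called. *Sncg*, which encodes gamma-synuclein and is high in motor and sensory neurons, measured 5.77, 12.98, 4.04 and 3.41 CPM in the CDD brains and 3.98, 3.97, 3.59 and 3.57 CPM in the ND brains. CDD replicate 2, which held the spinal cord markers, was the highest, and the log2 fold change moved from 0.79 (adjusted p = 0.371) to 0.22 without it (adjusted p = 0.448). *Sncg* was named after its values were seen.

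Synapsins coat vesicles and tether them in the reserve pool. *Syn2* measured 59.1, 59.9, 61.1 and 53.9 CPM in the CDD brains and 72.7, 69.7, 71.8 and 68.9 CPM in the ND brains, with no overlap, and fell by 17.3% (log2 fold change -0.27 ± 0.048 (SE), adjusted p = 0.00257). *Syn1* (chrX:20726750-20787243) measured 114, 124, 120.2 and 121 CPM in the CDD brains and 138, 126, 147 and 131 CPM in the ND brains. Its highest CDD value, 124 CPM, lay just below its lowest ND value, 126 CPM, and it fell by 11.7% (log2 fold change -0.18 ± 0.047 (SE), adjusted p = 0.0228). The *Syn1* call was lost without CDD replicate 1 or ND replicate 1, 3 or 4, and its log2 fold change with a GC content offset was -0.091 (adjusted p = 0.271). *Araf* overlaps *Syn1* on the other strand with 108% of its counts, and whether reads were counted by strand is not given in the sources used here. *Araf* itself was at -0.082 on the log2 scale (adjusted p = 0.286). *Syn3* was at 32.97 ± 2.07 CPM in CDD and 34.4 ± 2.07 CPM in ND (log2 fold change -0.062, 95% interval -0.19 to 0.068, adjusted p = 0.598), and *Timp3*, on the other strand with 63.2% of its counts, at a log2 fold change of -0.11 (adjusted p = 0.426).

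Of 8 vesicle membrane proteins, 3 were called lower. The synaptogyrins *Syngr1* and *Syngr3* are vesicle proteins with 4 membrane spans whose function in release is modulatory. *Syngr1* measured 70.7, 78.1, 79.3 and 76.5 CPM in the CDD brains and 92.7, 87.2, 97.3 and 93.7 CPM in the ND brains, and fell by 17.9% (log2 fold change -0.28 ± 0.047 (SE), adjusted p = 0.00194). *Syngr3* measured 55.5, 58.6, 63.9 and 52.7 CPM in the CDD brains and 70.5, 67.3, 72.1 and 73.5 CPM in the ND brains, and fell by 18.5% (log2 fold change -0.30 ± 0.055 (SE), adjusted p = 0.00344). Neither gene overlapped between diets. *Rpl3*, a ribosomal protein gene on the other strand that overlaps *Syngr1*, had 598% of its counts and a log2 fold change of 0.12 (adjusted p = 0.134).

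*Syp* encodes synaptophysin, an abundant vesicle protein and a standard marker of synapses. It was at 119 ± 7.99 CPM in CDD and 136 ± 6.45 CPM in ND and fell by 11.9% (adjusted p = 0.0253). That call was lost without CDD replicate 1 or ND replicate 1, 3 or 4. *Sv2a*, the SV2 protein with the highest level per kilobase, measured 181, 204, 198 and 199 CPM in the CDD brains and 205, 206, 215 and 208 CPM in the ND brains. No values overlapped, yet the gene did not pass (log2 fold change -0.10, 95% interval -0.19 to -0.00070, adjusted p = 0.206). *Sv2c* read 38.2 CPM in CDD replicate 2 and 15.0 to 22.2 CPM in the other CDD brains, against 20.3 to 23.3 CPM in ND, and its log2 fold change turned from 0.075 to -0.27 without that brain (adjusted p = 0.157). *Btf3l4b* overlaps *Sv2c* on the same strand with 44.4% of its counts and a log2 fold change of 0.044 (adjusted p = 0.801). *Sypl*, *Synpr* and *Sv2b* had log2 fold changes of -0.016, -0.13 and 0.0097, none of which passed.

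Neither vesicular glutamate transporter was called by edgeR or DESeq2, and 1 of the 2 had an unadjusted p under 0.05, as did 12.1% of all genes in the lower and 11.8% in the higher direction. *Slc17a6* encodes VGLUT2, the main glutamate loader of the embryonic brain. It measured 111, 131, 115 and 122 CPM in the CDD brains and 113, 108, 110.0 and 112 CPM in the ND brains (log2 fold change 0.11, 95% interval 0.013 to 0.21, adjusted p = 0.148). CDD replicate 2 was again the highest, and without it the estimate was 0.069. *Slc17a7*, which encodes VGLUT1, was at 33.3 ± 3.48 CPM in CDD and 33.8 ± 1.84 CPM in ND (log2 fold change -0.020, 95% interval -0.17 to 0.13, adjusted p = 0.897).

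Rab3 GTPases mark synaptic vesicles, and rabphilin is an effector that binds them. *Rab3a* (chr8:71207328-71211323) had the highest level per kilobase of all 51 genes, 78.5 ± 2.27 CPM per kb in ND (SD, n = 4). It measured 145, 159, 154 and 135 CPM in the CDD brains and 178, 169, 180.1 and 172 CPM in the ND brains, with no overlap, and fell by 15.1% (log2 fold change -0.24 ± 0.049 (SE), adjusted p = 0.00672). *Rph3a*, the rabphilin gene, measured 54.7, 58.7, 62.1 and 53.4 CPM in the CDD brains and 69.1, 63.1, 72.5 and 67.6 CPM in the ND brains, and fell by 15.9% (log2 fold change -0.25 ± 0.055 (SE), adjusted p = 0.00924). The *Rph3a* call was lost without ND replicate 3. *Rab3b* was at 18.4 ± 2.75 CPM in CDD and 22.1 ± 1.28 CPM in ND (log2 fold change -0.26, 95% interval -0.44 to -0.080, adjusted p = 0.0664) and *Rab3c* at 407 ± 52.1 CPM in CDD and 364 ± 16.7 CPM in ND (log2 fold change 0.16, 95% interval 0.0066 to 0.32, adjusted p = 0.189), so the estimates of the Rab3 genes lay on both sides of 0.

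Of 6 active zone scaffolds, 2 were called lower, both RIM genes. The long RIM proteins bind Rab3, calcium channels and Munc13 at the release site. *Rims1* (chr1:22356475-22845203) measured 58.4, 62.7, 57.96 and 58.1 CPM in the CDD brains and 69.04, 67.6, 71.96 and 72.6 CPM in the ND brains, and fell by 15.7% (log2 fold change -0.25 ± 0.046 (SE), adjusted p = 0.00344). *Rims3*, which encodes a short RIM protein, measured 96.5, 112, 110.1 and 103 CPM in the CDD brains and 125, 118, 135 and 127 CPM in the ND brains, and fell by 16.6% (log2 fold change -0.26 ± 0.051 (SE), adjusted p = 0.00441). Neither overlapped between diets. *Rims2* was at 73.4 ± 2.72 CPM in CDD and 69.3 ± 0.885 CPM in ND, with every CDD brain above every ND brain, and did not pass (log2 fold change 0.084, 95% interval -0.0059 to 0.17, adjusted p = 0.246).

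The large scaffolds were not called. *Bsn* encodes bassoon, which holds the cytomatrix of the active zone together, and had the highest level per kilobase among these scaffolds. It measured 243, 254, 268 and 292 CPM in the CDD brains and 248, 267, 279 and 271 CPM in the ND brains, and the diets overlapped throughout (log2 fold change -0.011, 95% interval -0.13 to 0.11, adjusted p = 0.935). *Pclo*, its partner piccolo, was at a log2 fold change of -0.11 (adjusted p = 0.164) and *Erc2* at -0.0094 (adjusted p = 0.933).

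Among 5 priming factors, *Baiap3* alone was called. It is a Munc13-related protein known from dense-core vesicle release. *Baiap3* (chr17:25461633-25475338) measured 14.9, 16.8, 16.98 and 14.96 CPM in the CDD brains and 21.7, 22.5, 24.2 and 22.6 CPM in the ND brains, with all CDD brains below all ND brains. It fell by 30.04% (log2 fold change -0.52 ± 0.069 (SE), adjusted p = 0.000671). *Tsr3* overlaps it on the other strand with 118% of its counts and a log2 fold change of -0.12 (adjusted p = 0.476). *Unc13a*, which encodes Munc13-1, the main priming factor of glutamate terminals, measured 239.7, 228, 278 and 247 CPM in the CDD brains and 249, 259.8, 268 and 266 CPM in the ND brains (log2 fold change -0.071, 95% interval -0.19 to 0.044, adjusted p = 0.469). The values of *Unc13a* overlapped between diets, and *Colgalt1*, on the other strand with 34.1% of its counts, was called lower (log2 fold change -0.22, adjusted p = 0.00395). *Unc13b*, *Cadps* and *Cadps2* had log2 fold changes of 0.082, -0.027 and -0.12, with adjusted p of 0.25, 0.745 and 0.498.

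Doc2 proteins are high-affinity calcium sensors of spontaneous and asynchronous release, and complexins clamp and activate the SNARE complex. Of these 4 genes, 3 were called lower. *Doc2b* measured 22.6, 23.9, 25.4 and 24.7 CPM in the CDD brains and 29.2, 26.5, 31.8 and 29.3 CPM in the ND brains, with no overlap, and fell by 17.2% (log2 fold change -0.27 ± 0.065 (SE), adjusted p = 0.0147). Its call was lost without ND replicate 1, 3 or 4. *Doc2a* was low, at 4.62 ± 0.687 CPM in CDD and 6.42 ± 0.810 CPM in ND, and fell by 28.1% (adjusted p = 0.024). Its partner on the other strand, *Ino80e*, had 699% of its counts and a log2 fold change of -0.010. The *Doc2a* call was lost without CDD replicate 1, ND replicate 1 or ND replicate 2, and with the GC content offset (adjusted p = 0.066).

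Both complexin windows printed above belong here. *Cplx1* was at 42.1 ± 3.76 CPM in CDD and 51.7 ± 4.62 CPM in ND, and fell by 18.7% (log2 fold change -0.30 ± 0.070 (SE), adjusted p = 0.0145). ND replicate 2, at 44.9 CPM, lay below CDD replicate 2, at 46.8 CPM, so the diets overlapped, and the call was lost without any one of the other 3 ND brains. *Cplx2* was the most abundant gene of this group per kilobase (49.99 ± 1.5 CPM per kb in ND). It measured 208, 244, 234 and 271 CPM in the CDD brains and 236, 247, 248 and 254 CPM in the ND brains, without a call (log2 fold change -0.043, 95% interval -0.17 to 0.089, adjusted p = 0.741). The ratio of *Cplx1* to *Cplx2* was 0.193, 0.192, 0.184 and 0.141 in the CDD brains and 0.225, 0.182, 0.221 and 0.213 in the ND brains, with overlap (exact permutation p = 0.114).

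Of 10 synaptotagmins, 4 were called lower, 1 higher and 5 not. Synaptotagmins are vesicle or membrane proteins with paired C2 domains, most of which bind calcium. *Syt5* (chr7:4542764-4550540), a calcium-binding form, measured 63.03, 59.3, 66.8 and 58.1 CPM in the CDD brains and 79.7, 73.1, 81.6 and 79.2 CPM in the ND brains. No CDD value reached the ND range, and it fell by 21.1% (log2 fold change -0.34 ± 0.051 (SE), adjusted p = 0.000988). *Syt7*, a slow high-affinity sensor, measured 161, 169, 174 and 171 CPM in the CDD brains and 189, 187, 197 and 197 CPM in the ND brains, and fell by 12.4% (log2 fold change -0.19 ± 0.042 (SE), adjusted p = 0.00955). *Syt3* measured 23.3, 26.8, 27.5 and 22.3 CPM in the CDD brains and 30.98, 28.98, 30.6 and 32.4 CPM in the ND brains, and fell by 18.7% (log2 fold change -0.30 ± 0.070 (SE), adjusted p = 0.0136). The values of these 3 genes did not overlap. Without ND replicate 3 or 4 the calls of *Syt7* and *Syt3* were lost, as was that of *Syt3* without ND replicate 1, and *Syt7* missed the threshold with the GC content offset (adjusted p = 0.0617). *Syt6* was at 37.9 ± 2.29 CPM in CDD and 43.9 ± 1.99 CPM in ND and fell by 13.7% (adjusted p = 0.0264), a call that held in 3 of the 8 fits with 1 brain left out.

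*Syt13*, an atypical synaptotagmin that does not bind calcium, was the only gene of the 51 called higher. It measured 104, 112, 117 and 135 CPM in the CDD brains and 99.3, 103, 101 and 99.7 CPM in the ND brains, and all CDD brains were above all ND brains. The rise was 16.4% (log2 fold change 0.22 ± 0.060 (SE), adjusted p = 0.0334). The call was lost without CDD replicate 3 or without any 1 ND brain. *Syt13* was named after its values were seen. *Syt11*, also a form without calcium binding, had the highest level per kilobase of the synaptotagmins, 65.5 ± 1.55 CPM per kb in ND. It measured 338, 376, 352 and 371 CPM in the CDD brains and 338, 349, 331 and 346 CPM in the ND brains (log2 fold change 0.074, 95% interval -0.026 to 0.17, adjusted p = 0.372).

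*Syt1*, the sensor of fast synchronous release, was at 172 ± 7.01 CPM in CDD and 181 ± 9.34 CPM in ND (log2 fold change -0.067, 95% interval -0.16 to 0.030, adjusted p = 0.412). *Syt4* was at 184 ± 28.4 CPM in CDD and 180.1 ± 8.52 CPM in ND and *Syt9* at 17.01 ± 1.13 CPM in CDD and 19.4 ± 0.724 CPM in ND, with adjusted p of 0.901 and 0.0863. *Syt2*, the fast sensor of spinal cord and hindbrain neurons, read 10.9 CPM in CDD replicate 2 and 4.46 to 7.58 CPM in the other 7, and its log2 fold change was 0.095 with that brain and -0.24 without it (adjusted p = 0.326). *Ppp1r12b* overlaps *Syt2* on the other strand with 1479% of its counts and a log2 fold change of -0.054 (adjusted p = 0.561).

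Vesicle retrieval was represented by 2 genes. *Dnm1* encodes dynamin 1, the neuronal GTPase that cuts endocytic vesicles from the membrane. It measured 186, 189.5, 207 and 180.1 CPM in the CDD brains and 212, 209.6, 217 and 218 CPM in the ND brains, with no overlap, and fell by 10.97% (log2 fold change -0.17 ± 0.046 (SE), adjusted p = 0.0303). This call held in 3 of the 8 fits with 1 brain left out and was lost with the GC content offset (adjusted p = 0.225) and the neuron scaling (adjusted p = 0.147). *Ciz1*, on the other strand of *Dnm1* with 38.2% of its counts, was at a log2 fold change of -0.033 (adjusted p = 0.761). *Amph*, which encodes amphiphysin and recruits dynamin, was at 69.8 ± 4.13 CPM in CDD and 76.7 ± 2.62 CPM in ND (log2 fold change -0.13, 95% interval -0.23 to -0.034, adjusted p = 0.0878). Without CDD replicate 2 *Amph* was called lower (-0.17, edgeR adjusted p = 0.0393) and *Dnm1* was not (-0.16, adjusted p = 0.0691).

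Ratios of paralogs within a brain were compared for 26 pairs in 14 families, a comparison added after the values of the genes were seen. Some pairs share a gene and so are not independent. In 7 pairs the ratio did not overlap between the diets. *Rims1* over *Rims2* was 0.819, 0.836, 0.819 and 0.761 in the CDD brains and 0.989, 0.964, 1.05 and 1.06 in the ND brains. *Rims2* over *Rims3* was 0.740, 0.671, 0.643 and 0.742 in the CDD brains and 0.556, 0.595, 0.510 and 0.538 in the ND brains. For the 2 RIM genes called lower the ranges overlapped, since *Rims1* over *Rims3* was between 0.527 and 0.606 in CDD and 0.534 and 0.574 in ND. *Rab3a* over *Rab3c* was 0.405, 0.366, 0.418 and 0.288 in the CDD brains and 0.483, 0.488, 0.508 and 0.446 in the ND brains. *Unc13a* over *Baiap3* was 16.1, 13.6, 16.4 and 16.5 in the CDD brains and 11.5, 11.6, 11.1 and 11.8 in the ND brains. The other separated pairs were *Rab3b* over *Rab3c*, *Unc13b* over *Baiap3* and *Sncb* over *Sncg*. Each of the 7 gave 0.0286, the smallest exact two-sided permutation p that 4 against 4 brains allow. Adjusted over the 26 pairs this was 0.106, so none passed the correction. With that smallest p, 7 separated pairs of 26 cannot pass it, so the correction decides nothing about these pairs.

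**Figure D3:**
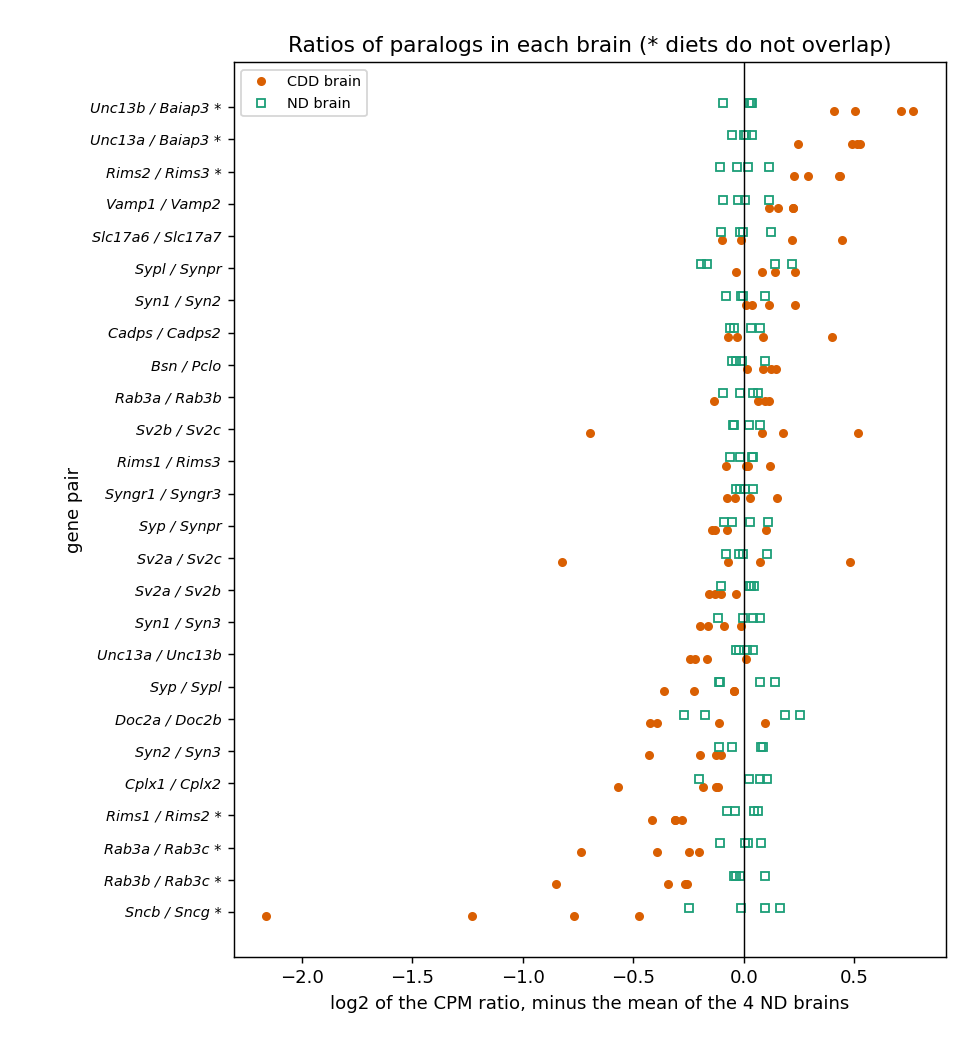
Log2 ratio of CPM for 26 pairs of paralogs in each brain, minus the mean of the 4 ND brains. Filled circles are CDD brains, open squares are ND brains, and stars mark the 7 pairs without overlap. Pairs with *Baiap3* as the second gene lie to the right, and those of *Sncb* over *Sncg* and of *Rab3a* and *Rab3b* over *Rab3c* lie to the left.

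Other genes of the presynaptic compartment, from a list of 67 in the table of which 64 were tested, had a median log2 fold change of -0.096. By edgeR 11 were called lower (17.2%) and 0 higher, against 4.59% and 4.24% of all genes. For 18 of the 64 (28.1%) every CDD brain lay below every ND brain, and for 0 above, against 7.39% and 7.65% of all genes. By DESeq2 14 were lower and 0 higher, against 6.74% and 7.12% of the 15524 genes that it gave an adjusted p. At an unadjusted p under 0.05 by edgeR 25 were lower and 2 higher, against the 12.1% and 11.8% of all genes given above. The 4 with the smallest p were *Ppfia4*, which encodes liprin-alpha-4 of the active zone (log2 fold change -0.38, adjusted p = 0.00142), *Sh3gl2*, which encodes endophilin A1 (-0.31, adjusted p = 0.00406), *Syt16* (-0.21, adjusted p = 0.00635) and *Tspoap1*, a RIM-binding protein gene (-0.22, adjusted p = 0.0166). *Slc32a1*, the vesicular transporter of GABA and glycine, was also called (-0.19, adjusted p = 0.0183), and is named here, like *Jakmip1* above, after its values were seen. The *Slc32a1* call held in 4 of the 8 fits with 1 brain left out and was lost with the neuron scaling (adjusted p = 0.0974) and with the GC content offset (log2 fold change -0.075, adjusted p = 0.359). That of *Tspoap1* held in 5 of the 8 and was lost with both of these settings (adjusted p = 0.0791 and 0.0924). Leaving out ND replicate 1, 3 or 4 gave 4, 3 and 3 calls lower, and leaving out CDD replicate 1 gave 6. The range of calls over all genes in such fits is given in the last section.

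Of 24 genes of neuron structure, 3 were called lower (12.5%) and 0 higher by edgeR, against 4.59% and 4.24% of all genes. DESeq2 called 7 lower and 0 higher, against 6.74% and 7.12%. At an unadjusted p under 0.05 by edgeR 10 were lower and 1 higher, against 12.1% and 11.8%. The median log2 fold change was -0.037 with all 8 brains and -0.080 without CDD replicate 2, where that of the 51 genes was -0.19. Those called by edgeR were *Thy1*, a surface protein of neurons (-0.60, adjusted p = 0.0135), *Nsg1*, an endosomal protein (-0.19, adjusted p = 0.0253), and *Gap43*, the growth cone protein (-0.18, adjusted p = 0.0484). With 1 brain left out the *Gap43* call held in 1 of 8 fits, that of *Nsg1* in 4 and that of *Thy1* in all but the one without ND replicate 3. With the GC content offset *Gap43* and *Nsg1* were not called (adjusted p = 0.090 and 0.0669), nor were they with the neuron scaling (0.124 and 0.0801), and *Gap43* was also lost with a length offset (0.0984). Of 22 neural progenitor genes, 13 were called higher (59.1%) and 0 lower by edgeR, against 4.24% and 4.59% of all genes, with a median of 0.23. At an unadjusted p under 0.05, 19 were higher and 0 lower, against shares of all genes of 11.8% and 12.1%. The smallest p among them were those of *Ccnd1*, which encodes cyclin D1 (0.50, adjusted p = 0.000403), of the replication genes *Mcm2* (0.32, adjusted p = 0.00156) and *Mcm5* (0.32, adjusted p = 0.00164), and of *Ccnb1* (0.37, adjusted p = 0.00213).

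Lists of other cell types were small, and over all genes tested 4.59% were called lower and 4.24% higher. Of 12 endothelial and mural genes, *Cldn5* (-0.28) and *Rgs5* (-0.18) were called lower, or 16.7%. The summed level of the 12 was 397 to 410 CPM in CDD and 427 to 447 CPM in ND, with no overlap. Of 12 microglial and macrophage genes, 3 or 25% were lower, *Cd163* (-1.38), *C1qc* (-0.40) and *Mrc1* (-0.27). Their list summed to 80.2 to 88.2 CPM in CDD and 89.2 to 107 CPM in ND, with no overlap. Of 12 genes of meninges and choroid plexus, *Slc6a13* (-0.57), *Col1a1* (-0.23) and *Col1a2* (-0.23) were lower, or 25%. *Otx2* (0.20) and *Lum* (0.29) of that list were higher, or 16.7%, and sums overlapped at 699 to 1044 CPM in CDD and 812 to 933 CPM in ND. Of 12 erythroid genes, *Hbb-y* (2.24) and *Hba-x* (1.67), both embryonic globins, were higher, or 16.7%. Of this list, 8 estimates were below 0 and 4 above, with a median log2 fold change of -0.20. Its sums overlapped at 765 to 1427 CPM in CDD and 828 to 2997 CPM in ND. The caudal list had 2 of its 13 genes tested and none called. The values in brackets are log2 fold changes, and all of these genes had an adjusted p under 0.05 in the fit of all 8 brains. The calls of *Cldn5*, *Cd163*, *Slc6a13* and *Hbb-y* held in each of the 8 fits with 1 brain left out, those of *C1qc*, *Col1a1* and *Hba-x* in 6, *Rgs5* in 5, *Otx2* in 4, *Col1a2* in 3, *Mrc1* in 2 and *Lum* in 1. With the GC content offset *Col1a1*, *Col1a2* and *Lum* were not called (adjusted p = 0.148, 0.139 and 0.0585). With the neuron scaling *Rgs5*, *C1qc*, *Mrc1* and *Col1a2* were not called (adjusted p = 0.0906, 0.0544, 0.0862 and 0.0884), and with the length offset *Col1a2* was not (0.058). Their part in the presynaptic values was not tested.

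**Figure D4:**
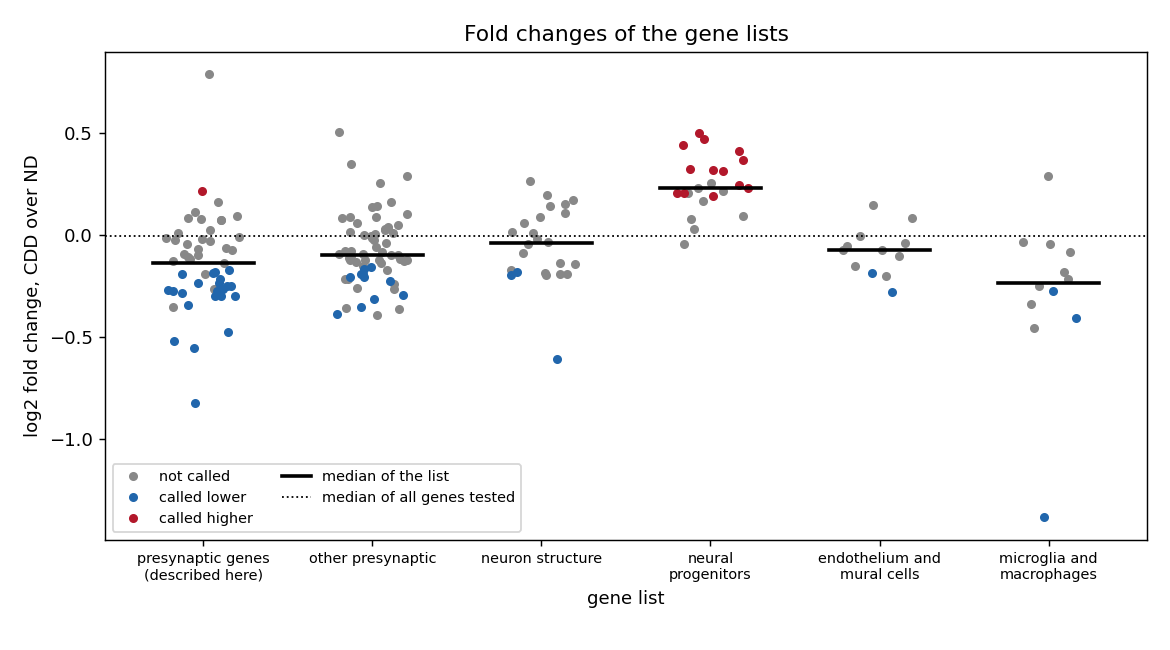
Log2 fold change (CDD over ND) of each tested gene in 6 gene lists. Points are genes, blue and red mark genes called lower and higher, short bars are list medians and the dotted line is the median of all genes tested. The presynaptic genes have a median of -0.13, neuron structure -0.037 and neural progenitors 0.23.

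Features of the genes called lower and of the others are given as a description, with no test. Length, span and GC content did not enter the main fit, whereas the levels come from the same counts as the calls. The median listed length of genes called lower was 4724 bases, against 8345 bases for the 29 others and 3733 bases for all genes tested. Median GC content of the longest transcript was 55.4% against 48.9%, with 49.4% over all genes. Their median genomic span was 29.8 kb against 116 kb. All 888 genes called lower among those tested had similar medians, at 4452 bases, 53.7% GC and 27.6 kb. The 822 genes called higher had medians of 5941 bases, 46.7% GC and 33.9 kb. The median level in ND of the presynaptic genes called lower was 70.8 CPM against 81.7 CPM for the 29 others. Per kilobase the order was the opposite, 15.7 CPM per kb against 6.67 CPM per kb. Across the 51 genes, Spearman's rho of the log2 fold change was 0.50 with length and -0.50 with GC content, where all points share the same 8 libraries. Over all genes tested these rho values were 0.083 and -0.22. With an offset for GC content, added after the data were seen, 19 of the 51 were called lower, against 3.33% of all genes, of which *Stx1a* was new, while *Doc2a*, *Syn1*, *Syt7* and *Dnm1* were lost. With an offset for gene length 24 were called lower, against 4.49% of all genes.

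**Figure D5:**
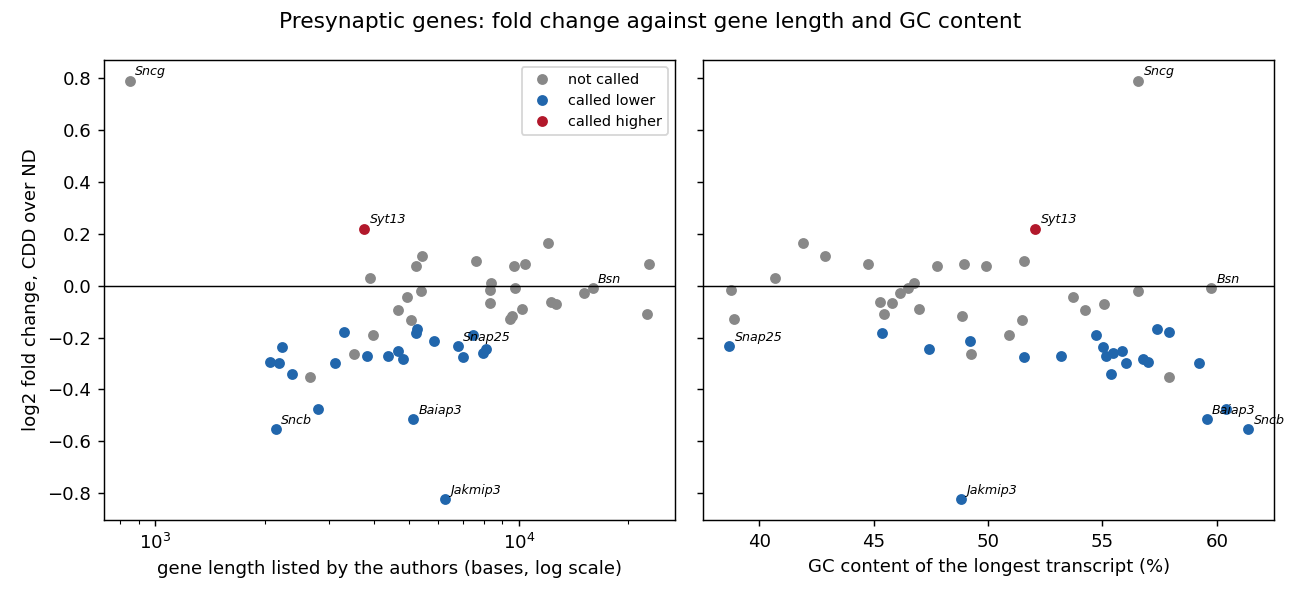
Log2 fold change (CDD over ND) of the 51 genes against the gene length listed by the authors (bases, log scale, left) and the GC content of the longest transcript (percent, right). Each point is a gene, coloured by its call. Genes called lower lie between 2071 and 8103 bases, and the others reach 22746 bases.

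By level per kilobase in the ND brains, the order ran from *Rab3a* (78.5 ± 2.27 CPM per kb, SD, n = 4), *Syt11* (65.5 ± 1.55) and *Vamp2* (64.2 ± 2.07) through *Cplx2* (49.99 ± 1.5), *Syt4* (46.3 ± 2.19) and *Sv2a* (45 ± 1.02) down to *Vamp1* (1.59 ± 0.102) and *Syt2* (0.817 ± 0.135). *Syt11* and *Vamp2* differed by less than their spread, as did *Syt4* and *Sv2a*. Of the first 10 in this order, *Rab3a*, *Vamp2*, *Syn1*, *Dnm1*, *Syngr3* and *Syt5* were called lower and *Syt11*, *Cplx2*, *Syt4* and *Sv2a* were not called.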

How the data were processed

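Raw gene counts were deposited for each of the 8 brains, with no normalization per the file headers. According to the submitters' processing notes HISAT2 2.0.5, featureCounts 1.5.0-p3 and DESeq2 1.20.0 were used, and the genome build and the strand setting are not given in the sources used here. The same table holds 16 further per-sample columns, 2 for each of the 8 brains (size-factor normalized counts and FPKM), and the authors' own fold changes and p-values, which were not used, nor were 3 shorter tables of their comparison. Gene length (other unit) was taken from that table. The 2 groups follow the diet in the sample titles.

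Counts were filtered with filterByExpr of edgeR 4.0.16 in R 4.3.3, which left 19367 of 33971 genes, scaled by TMM and fitted for diet alone with the quasi-likelihood test (robust option). Calls are at a Benjamini-Hochberg adjusted p under 0.05 over all genes tested. The same steps were tested on simulated data, in which the changes were larger than most of those called here. That run therefore does not show how well changes of the reported size are recovered. CPM are of the TMM-scaled library and CPM per kb divide by the listed gene length. Library totals were between 31770217 and 43121170 counts, and the common biological coefficient of variation was 0.0814. For single values, all divisions of the 8 brains were enumerated (exact permutation test, two-sided). GC content came from GENCODE M21 transcripts matched by gene identifier, and promoters from RefSeq (GRCm38.p6) matched by symbol. Alternatives used DESeq2 1.42.0, limma 3.58.1 (voom), other scalings, filters, offsets (loess span 0.3), thresholds and each brain left out. Tables and plots were made in Python 3.11.15 with NumPy 2.4.6, pandas 2.3.3, matplotlib 3.10.9 and SciPy 1.17.1.

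The genes described, the other lists and the tests were chosen with earlier results of these data known. Values in every brain are given for up to 16 genes called with no overlap between diets (smallest p first), for the gene with the highest level per kb in each of the 11 roles and for *Jakmip3*. *Stx1a*, *Sncg*, *Syt13*, *Jakmip1* and *Slc32a1* were named after their values were seen. Of the other lists, the called genes with the 4 smallest p in each direction are named. From the list of other presynaptic genes, Vamp7 was not found in the table by its symbol.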

Additional observations from a re-analysis of the deposited data

Results flagged for a closer look

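In 3 of 102 groups of 4 brains, 1 brain lay far from the other 3 of its diet by Dixon's criterion, where chance gives about 5.1. *Rims1* was at 62.7 CPM in the second CDD brain and 58.0 to 58.4 CPM in the other CDD brains. *Cplx1* was at 44.9 CPM in the second ND brain and 53.2 to 54.7 CPM in the others. *Syt1* was at 167 CPM in the second ND brain and 183 to 187 CPM in the others.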

How the results depend on the processing

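Among the 51 genes, RLE, upper-quartile scaling, limma-voom and a minimum of 10 counts left the number called lower at 22, and the median log2 fold change stayed between -0.19 and -0.12 when 1 brain was left out. With 1 brain left out, all genes called numbered 471 to 2495, presynaptic genes called lower 12 to 25 and higher 0 to 1, and other presynaptic genes called lower 3 to 12 and higher 0 to 1. An adjusted p under 0.01 gave 477 genes in all, 13 presynaptic genes lower and 0 higher, and 3 of the other presynaptic list lower. A change of at least 1.5-fold gave 174 genes in all, 1 presynaptic gene lower and 0 higher, and 0 of the other list. With no filter 2 were higher, *Rab3c* being the second. Of the other list, 6 were lower with the GC content offset and 4 with the neuron scaling, and 1 was higher with the length offset. The causes were not tested. Genes without a call changed sign in some fits. With the GC content offset *Bsn* was at 0.095, *Slc17a7* at 0.050, *Cplx2* at 0.00090 and *Syt4* at -0.0072. With the neuron scaling *Erc2* was at 0.027, *Bsn* at 0.025, *Slc17a7* at 0.020, *Cadps* at 0.0099 and *Sypl* at 0.022. With *Xist* as a covariate *Slc17a7* was at 0.0028, *Syt4* at -0.042, *Sypl* at 0.0019, *Sv2c* at -0.11 and *Sv2b* at -0.026, with the length offset *Slc17a7* was at 0.00017 and by limma-voom *Sv2c* was at -0.033. The labels do not say whether the replicate numbers pair the brains. Deviations of same-numbered brains correlated between -0.13 and 0.23 with 3 of 4 over 0.1. Those of differently numbered brains correlated between -0.25 and 0.21, and so few correlations cannot show whether the numbers pair. With the number as a replicate block 1812 genes were called, with 22 presynaptic genes lower and 1 higher, and *Sv2c* was at -0.0046. With 1 brain left out the values were -0.047 to 0.023 for *Erc2*, -0.063 to 0.032 for *Bsn*, -0.085 to 0.036 for *Slc17a7*, -0.11 to 0.023 for *Cplx2*, -0.24 to 0.24 for *Syt2*, -0.050 to 0.097 for *Syt4*, -0.050 to 0.0084 for *Sypl*, -0.27 to 0.24 for *Sv2c* and -0.017 to 0.049 for *Sv2b*. With 4 brains a diet the spread limits what can be called: *Stx1a*, at -0.35, did not pass, while *Dnm1*, at -0.17, did. DESeq2 called 24 lower.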
